A study of Homo sapiens with 6 samples.

Results

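The genes described are 4 claudins (CLDN1, CLDN4, CLDN7 and CLDN12), the MARVEL-domain proteins OCLN and MARVELD2, the junctional adhesion molecule F11R and the cytoplasmic scaffolds TJP1 and CGN. They were taken by symbol from the deposited gene tables, in which they are 9 of 16279 genes. All 9 passed the filter on low counts that left 13311 genes for testing. The samples are 6 RNA-seq libraries of 12Z, an established human endometriotic epithelial cell line, labelled as endometrial epithelial cells. In 3 libraries the cells were left untreated (Control), and in the other 3 they received rhChem157S, recombinant human chemerin running from Glu21 to Ser157, at 10 ng/mL for 48 h. Both groups are the same line, the comparator is untreated rather than vehicle-treated, and the labels call the libraries biological replicates without saying whether they came from separate cultures, so p-values measure the spread between these libraries only.

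Tight junctions are the most apical contacts between epithelial cells. Claudins are 4-pass membrane proteins whose extracellular loops meet those of the neighbouring cell, and the claudins that a cell makes set how tightly the paracellular space is sealed and which ions pass. Occludin (OCLN) and tricellulin (MARVELD2) lie in the same strands, tricellulin mainly where the corners of cells meet. The adhesion molecule F11R (JAM-A) sits beside them, and ZO-1 (TJP1) and cingulin (CGN) tie the strands to actin and myosin. In endometrium these contacts separate the uterine lumen from the stroma. Chemerin is a secreted chemoattractant and adipokine that acts through the receptors CMKLR1 and CMKLR2.

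The libraries held 35430881 to 38341643 counts, so that 1 count in the smallest is 0.0282 CPM (counts scaled to a common library total). The trimmed-mean (TMM) scaling factors were 1.04 to 1.05 in the Control libraries and 1.00, 0.973 and 0.898 in rhChem157S replicates 1 to 3. Among the markers of epithelium, the keratins KRT8, KRT18 and KRT19 averaged 820, 608 and 295 FPKM (fragments per kilobase of gene, scaled to the library's total) in Control cells, whereas EPCAM and CDH1, which encodes E-cadherin, were near the bottom of the range, with 7 to 45 and 15 to 65 counts per library. Both lay below Control in every treated library. EPCAM had means of 0.599 and 0.196 FPKM (log2 fold change -1.46, edgeR adjusted p = 0.165) and CDH1 0.310 and 0.129 FPKM (-1.14, edgeR adjusted p = 0.188). All genes in their range, 0.1 to 1 FPKM, had a median of -0.36, with 71.6% negative. On TMM-scaled CPM, KRT8 and KRT19 lay above Control in every treated library (0.29 and 0.27, edgeR adjusted p = 0.201 and 0.209). KRT18 had 0.16 with overlap, and genes above 100 FPKM had a median of 0.25. Of all genes, 16.0% were lower and 16.5% higher without overlap. Markers of mesenchymal cells were abundant in both groups, at a summed 2340 to 2469 FPKM in Control and 3191 to 4321 FPKM in rhChem157S libraries. VIM, the intermediate filament protein vimentin, went from a mean of 900 to 2352 FPKM (edgeR, adjusted p = 0.0752) and made up the higher sum. The collagens COL1A1 and COL1A2 had log2 fold changes of 0.01 and -0.47 and PDGFRB -0.60, with overlapping groups. CDH2 had 0.40 and lay above Control in every treated library (edgeR adjusted p = 0.165). DCN, FN1 and THY1 had 0.39, 0.19 and 0.10 with overlapping groups. Of the 8 mesenchymal markers 6 were positive and 2 negative, with a median of 0.14. Of the 7 epithelial and 8 mesenchymal markers tested, edgeR called 0. At an unadjusted edgeR p under 0.05, 3 epithelial markers were lower, 2 epithelial higher and 2 mesenchymal higher. At that limit 11.4% of all genes were lower and 11.4% higher. DESeq2 called the mucin gene MUC1 lower (adjusted p = 0.0363) and VIM higher (adjusted p = 6e-06), where it called 10.6% of all genes in either direction. Endothelial markers summed to 1.61 to 2.06 FPKM in Control and 0.991 to 1.42 FPKM in rhChem157S libraries, with PECAM1 at 0 to 10 counts. The leukocyte list summed to 37.0 to 51.7 and 6.73 to 21.3 FPKM, nearly all of it CD14, while PTPRC, the pan-leukocyte antigen CD45, had 4 to 12 counts. What part these markers have in the results below was not tested, and in bulk RNA a change in the share of cells that make a transcript cannot be told apart from a change in transcript per cell.

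CLDN1 was lower in rhChem157S-treated cells and was the member that passed the test. OCLN and CLDN7 lay below every Control library in every treated library without passing it, and the other 6 members overlapped between the groups. Of the 9 members, 1 had an adjusted p under 0.05 with edgeR's quasi-likelihood test (Benjamini-Hochberg over 13311 genes), where 0.0301% of all genes were called in either direction and 0.0150% with lower expression. With DESeq2 2 members were called, CLDN1 and OCLN, against 10.6% of genes in either direction. At an unadjusted edgeR p under 0.05 there were 2 members, both lower, where 11.4% of all genes were lower. On TMM-scaled CPM the groups did not overlap for 3 members, all lower, against 16.0% of all genes that were lower without overlap. The log2 fold change was negative for 7 of the 9 and positive for 2, with a median of -0.22, whereas the median of all genes tested was 0.01 and 48.3% of them were negative. Scaled by library size alone, all 9 were negative, and the median of all genes moved to -0.12. Without rhChem157S replicate 3, 5 were negative and 4 positive.

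**Figure D1:**
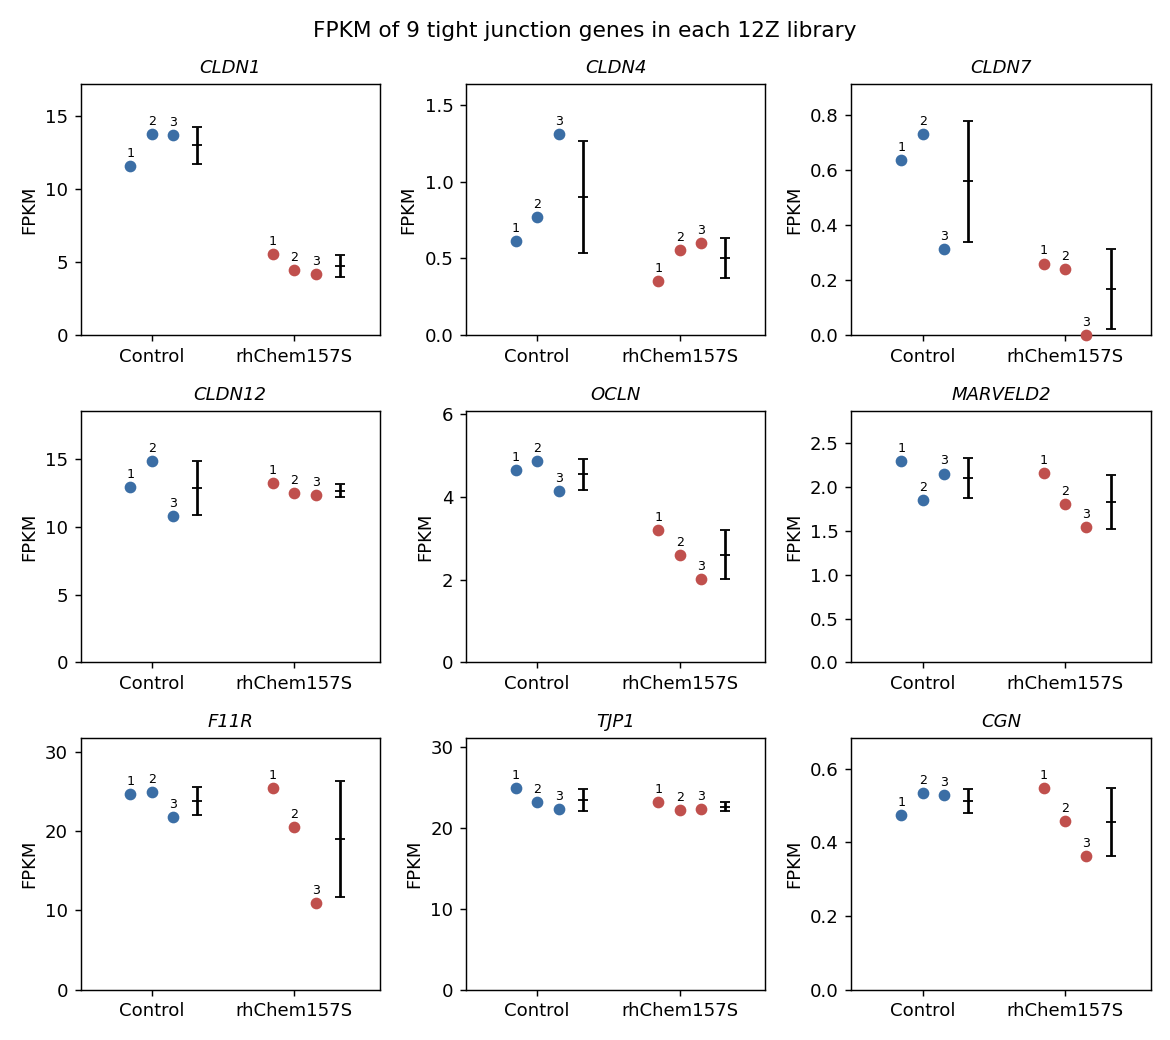
FPKM of the 9 members in each of the 6 libraries, with 1 panel and its own linear axis per gene; numbered points are libraries, and the bars to their right give the group mean and 1 SD (n = 3 per group). The rhChem157S points lie below all Control points for CLDN1, OCLN and CLDN7, those of CLDN4 only just, and the 3 rhChem157S points of F11R spread from 10.98 to 25.4 FPKM.

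CLDN1 (ENSG00000163347.5) encodes a barrier-forming claudin and lies on the minus strand at chr3:190305701-190322475 (GRCh38, GENCODE 29), where no other annotated gene shares its exons. The Control libraries 1 to 3 held 11.6, 13.8 and 13.7 FPKM and the rhChem157S libraries 5.59, 4.45 and 4.21 FPKM, from 1411 to 1745 and from 542 to 738 counts. Every treated library thus lay below every Control library, and the highest treated value was less than the lowest Control value by more than either group's spread. The means were 13.01 ± 1.26 and 4.75 ± 0.737 FPKM (SD, n = 3 each). CLDN1 fell by 1.33 on the log2 scale (SE 0.12, 95% interval -1.62 to -1.04, edgeR adjusted p = 0.0460), which is 2.51-fold lower, and it had the 2nd smallest p of all genes tested. With DESeq2 the log2 fold change was -1.33 (adjusted p = 2.98e-16).

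The size of the CLDN1 difference stayed between -1.43 and -1.28 when each library was left out in turn, while its edgeR call did not always hold. The adjusted p was 0.147, 0.355 and 0.249 without Control replicates 1, 2 and 3 and 0.259 without rhChem157S replicate 2. It was 0.0266 without rhChem157S replicate 1 and 0.0195 without replicate 3. The 4 leave-one-out fits in which CLDN1 had an adjusted p above 0.05 in edgeR called 0 genes of the whole table, with 1666 to 2190 at an unadjusted p under 0.05.

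The sequence just upstream of CLDN1 is shown because this gene carries the main difference and because factors that repress epithelial genes bind E-boxes. The part of the RefSeq window that lies outside the GENCODE gene (GRCh38.p14, minus strand, chr3:190322476-190322696), 221 of its 250 bases, reads 5′ to 3′ as follows.
CLDN1 upstream: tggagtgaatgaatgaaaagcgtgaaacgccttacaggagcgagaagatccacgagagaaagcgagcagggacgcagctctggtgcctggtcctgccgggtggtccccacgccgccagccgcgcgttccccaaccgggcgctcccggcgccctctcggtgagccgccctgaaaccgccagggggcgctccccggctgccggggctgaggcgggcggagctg
Neither CACCTG nor CAGGTG, which are the same motif read from either strand and the E-box letters bound by SNAI and ZEB factors, stands in the 250 bases before the RefSeq start. TATAAA, searched with its complement TTTATA, was also absent there. Absence says only that these letters are not in this window.

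CLDN12 (ENSG00000157224.15, plus strand, chr7:90383721-90513402) encodes a claudin that lacks the PDZ-binding tail by which most claudins hold ZO-1. Its FPKM were 12.96, 14.8 and 10.8 in Control libraries and 13.2, 12.5 and 12.4 in rhChem157S libraries, 1379 to 1928 counts in all. The treated libraries lay inside the Control range. The log2 fold change was 0.11 (SE 0.12, interval -0.18 to 0.40, edgeR adjusted p = 0.617), and it turned to -0.02 when libraries were scaled by size alone. Of its 6741 annotated exon bases, 16.3% are shared with 4 other genes on the same strand, among them GTPBP10 and CDK14.

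CLDN4 (ENSG00000189143.9, plus strand, chr7:73799542-73832693), a sealing claudin that also serves as a receptor for a clostridial enterotoxin, was low. It had 0.616, 0.771 and 1.31 FPKM in Control and 0.354, 0.553 and 0.599 FPKM in rhChem157S libraries, which is 23 to 80 counts. The highest treated library fell just under the lowest Control library in FPKM, but the groups overlapped once TMM scaling was applied. The log2 fold change was -0.70 (SE 0.43, interval -1.72 to 0.32, edgeR adjusted p = 0.364). Without Control replicate 3, the highest library, it was -0.32, and with limma on log2(FPKM + 1) also -0.32.

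CLDN7 (ENSG00000181885.18, minus strand, chr17:7259903-7263983), a claudin found also along the basolateral membrane of many epithelia, was lower still. The Control libraries held 36, 43 and 18 counts (0.636, 0.733 and 0.313 FPKM) and the rhChem157S libraries 16, 14 and 0 counts (0.261, 0.242 and 0 FPKM). All treated libraries lay below all Control libraries, and the count of 0 in replicate 3 allows up to 3 counts, or 0.0502 FPKM. The log2 fold change of -1.63 had an SE of 0.89 and an interval of -3.71 to 0.45 (edgeR adjusted p = 0.309; DESeq2 adjusted p = 0.302). It was -1.07 without rhChem157S replicate 3 and -0.42 with limma on log2(FPKM + 1). Of its 2492 exon bases 12.3% are shared with other genes, 38 of them with ELP5 on the opposite strand, and the strand setting of the counting is not given in the sources used here. Genes between 0.1 and 1 FPKM had a median log2 fold change of -0.36 over 1928 genes, 71.6% of them negative, which is the range that CLDN4, CLDN7 and CGN fall in.

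**Figure D2:**
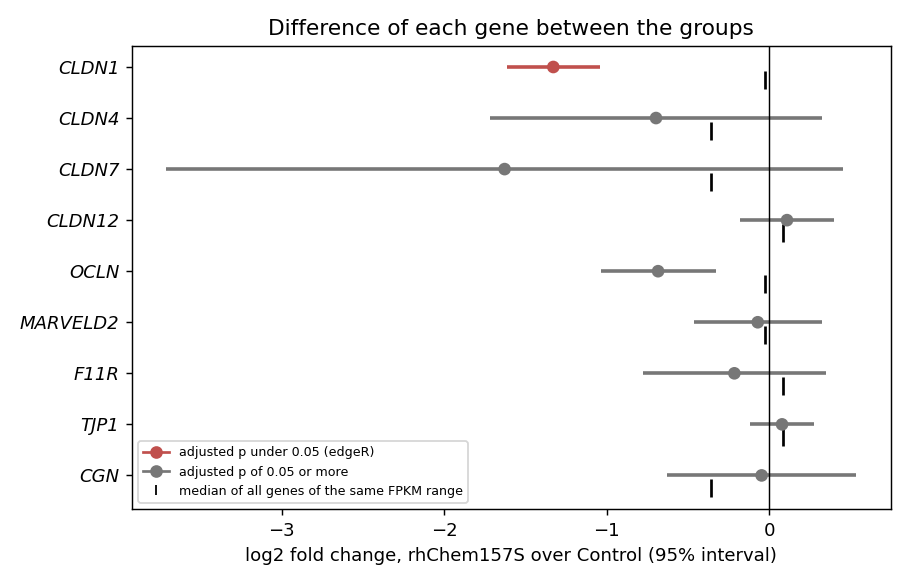
Log2 fold change of each member, rhChem157S over Control, from edgeR with TMM scaling; points are estimates (red where called), bars 95% intervals (n = 3 per group) and black ticks the median of all tested genes in the same FPKM range. The CLDN1 and OCLN intervals lie wholly below 0, those of CLDN4 and CLDN7 are wide and include 0, and CLDN12 and TJP1 lie close to 0.

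OCLN (ENSG00000197822.10, plus strand, chr5:69492292-69558104) encodes occludin. The Control libraries held 4.65, 4.86 and 4.13 FPKM and the rhChem157S libraries 3.20, 2.59 and 2.02 FPKM, from 941 to 1129 and from 477 to 776 counts. Every treated library lay below every Control library, and rhChem157S replicate 3 was the lowest. The means were 4.55 ± 0.375 and 2.60 ± 0.592 FPKM (SD, n = 3 each). The log2 fold change was -0.68 (SE 0.15, interval -1.04 to -0.33), with an unadjusted p of 0.00236 and an adjusted p of 0.0914 in edgeR, and DESeq2 gave -0.69 with an adjusted p of 0.00291. The edgeR adjusted p was 0.0338 without rhChem157S replicate 1, 0.0585 without replicate 3 and 0.224 to 0.377 without any 1 of the other 4 libraries. An unprocessed pseudogene, OCLNP1, lies on the same chromosome at chr5:71074225-71093193 and has no row in the tables, so counts of OCLN are uncertain where its reads could map to both.

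MARVELD2 (ENSG00000152939.15, plus strand, chr5:69415065-69444330), the tricellulin gene, ends 47961 bases before OCLN on the same strand. Its FPKM were 2.29, 1.85 and 2.15 in Control and 2.15, 1.80 and 1.54 in rhChem157S libraries. The groups overlapped, and the log2 fold change was -0.07 (SE 0.17, interval -0.47 to 0.32, edgeR adjusted p = 0.818). Without Control replicate 1 it was 0.01. The ratio of OCLN to MARVELD2 in FPKM was 2.03, 2.63 and 1.92 in Control and 1.49, 1.43 and 1.31 in treated libraries, so the neighbours' ratio did not overlap between the groups (permutation test, exact and two-sided, p = 0.10, below which 3 libraries against 3 cannot go). This ratio was chosen after its values were seen.

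F11R (ENSG00000158769.17, minus strand, chr1:160995211-161021348) encodes JAM-A, an immunoglobulin-like adhesion protein. Its Control libraries held 24.6, 24.9 and 21.8 FPKM, the highest mean of the members but overlapping with TJP1, and the treated libraries held 25.4, 20.5 and 10.98 FPKM. One treated library lay above all Control libraries, and replicate 3 lay at less than the others by a wide margin. The log2 fold change was -0.22 (SE 0.24, interval -0.78 to 0.35, edgeR adjusted p = 0.606), and without rhChem157S replicate 3 it was 0.03 (SE 0.10). A readthrough gene model on the same strand shares 36.6% of its 5066 exon bases.

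TJP1 (ENSG00000104067.16, minus strand, chr15:29699367-29968865) encodes ZO-1, which binds claudin tails and occludin and links them to actin. Its FPKM were 24.9, 23.1 and 22.2 in Control and 23.2, 22.2 and 22.3 in rhChem157S libraries, from 7002 to 7773 counts. The groups overlapped, with a log2 fold change of 0.08 (SE 0.08, interval -0.12 to 0.27, edgeR adjusted p = 0.593) that became -0.05 under scaling by library size alone. This interval does not reach that of CLDN1. CGN (ENSG00000143375.14, plus strand, chr1:151510510-151538692), the cingulin gene, was low at 0.474, 0.534 and 0.529 FPKM against 0.547, 0.457 and 0.362 FPKM. Its log2 fold change was -0.05 (SE 0.25, interval -0.63 to 0.53, edgeR adjusted p = 0.921), and 0.05 without rhChem157S replicate 3.

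E-box letters are shown for each member that holds them, at 1 or more sites, so that they can be set beside CLDN1, which holds none. The windows of CLDN4, CLDN12, MARVELD2 and CGN held none either. RefSeq windows were found for 8 of the 9 members, all but F11R, 13 windows in all, and CACCTG or CAGGTG stood in 4 windows of 3 members, against 17.5% of the 35116 windows of the table. TATAAA or TTTATA stood in 0 of the 13, against 10.7% of all windows. The sites are printed 5′ to 3′ on the gene's strand with the E-box in capitals. Those of OCLN lie at chr5:69492502-69492531 and chr5:69492645-69492674, that of TJP1 at chr15:29969120-29969149, and the printed CLDN7 site, which holds a pair of the 4 E-boxes of its window, at chr17:7262476-7262505 (GRCh38.p14).
OCLN site 1: ccatccgagtttCAGGTGaattggtcaccg
OCLN site 2: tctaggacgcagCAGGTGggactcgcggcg
TJP1 site: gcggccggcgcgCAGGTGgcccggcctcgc
CLDN7 site: atatactCAGGTGcgcccCACCTGtccgcc
The sites begin 33 and 133 bases before the respective RefSeq starts in OCLN, 88 in TJP1, and 20 and 9 in CLDN7, whose other E-boxes begin 174 and 135 bases before the start. By GENCODE the OCLN and CLDN7 sites lie inside exons of their own genes, and the TJP1 site does not. A match is a description of letters and not of binding.

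The order of the members by mean FPKM changed in the upper and the lower part. In Control cells F11R and TJP1 stood highest with overlapping ranges, followed by CLDN1 and CLDN12, whose ranges also overlapped. OCLN and MARVELD2 came next, apart from each other and from their neighbours, and CLDN4, CLDN7 and CGN lay lowest. Among these, the range of CLDN7 overlapped those of CLDN4 and CGN, which did not overlap each other. In rhChem157S-treated cells TJP1, F11R and CLDN12 overlapped in sequence at the top. CLDN1 stood alone below CLDN12, OCLN overlapped MARVELD2, and CLDN7 was the lowest without overlap with CGN. CLDN1 thus went from a level like that of CLDN12 to a level below every CLDN12 library.

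Ratios of FPKM between members do not depend on library scaling. CLDN1 made up 44.9, 45.7 and 52.4% of the summed FPKM of the 4 claudins in Control and 28.8, 25.1 and 24.5% in rhChem157S libraries. The means were 47.7 ± 4.12% and 26.1 ± 2.32% (SD, n = 3 each; exact two-sided permutation test, p = 0.10). The summed level of the 4 claudins was 27.4 ± 2.41 FPKM in Control and 18.1 ± 1.17 FPKM in treated cells, without overlap. The share of CLDN12 was 47.0 ± 4.86% and 70.2 ± 1.99%, also without overlap. As CLDN1 and CLDN12 make up nearly all of this sum, the CLDN12 share largely mirrors that of CLDN1 and is not a separate result. The ratio of CLDN1 to CLDN12 averaged 1.03 ± 0.206 in Control and 0.373 ± 0.0438 in treated libraries, and that of CLDN1 to TJP1 0.559 ± 0.0821 and 0.210 ± 0.0273. The ratio of OCLN to TJP1 was 0.194 ± 0.0138 and 0.115 ± 0.0238. These ratios did not overlap between the groups (exact two-sided permutation test, p = 0.10 for each), and those to CLDN12 and TJP1 were chosen after their values were seen.

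The 4 claudins are a small share of the claudin transcript in these cells. Of 19 claudins with a row, 9 were tested and 9 had fewer than 10 counts in every library. CLDN11, known from myelin and the Sertoli cell barrier, was the most abundant, at 108, 95.1 and 112 FPKM in Control and 118, 126 and 116 FPKM in rhChem157S libraries. The treated libraries all lay above the Control libraries, with a log2 fold change of 0.32 (SE 0.10, edgeR adjusted p = 0.133; DESeq2 adjusted p = 0.0444). The median of the 542 genes above 100 FPKM was 0.25, and 15.9% of them were negative. CLDN11 took 72.6 ± 2.99% of the summed claudin FPKM in Control and 81.9 ± 1.66% in treated cells (SD, n = 3 each; exact two-sided permutation test, p = 0.10). The summed FPKM of all claudins was 144 ± 6.12 and 146 ± 6.10, and overlapped between the groups (p = 0.6, same exact permutation test). FPKM carries no TMM scaling, whose factors were 1.04 to 1.05 in Control and 1.00, 0.973 and 0.898 in rhChem157S libraries. Such scaling would raise the treated sums relative to Control, and whether the groups then overlap was not tested. The share of CLDN1 in that sum was 9.04 ± 1.07% in Control and 3.24 ± 0.483% in treated cells. The sums over all claudins were chosen after values were seen.

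**Figure D3:**
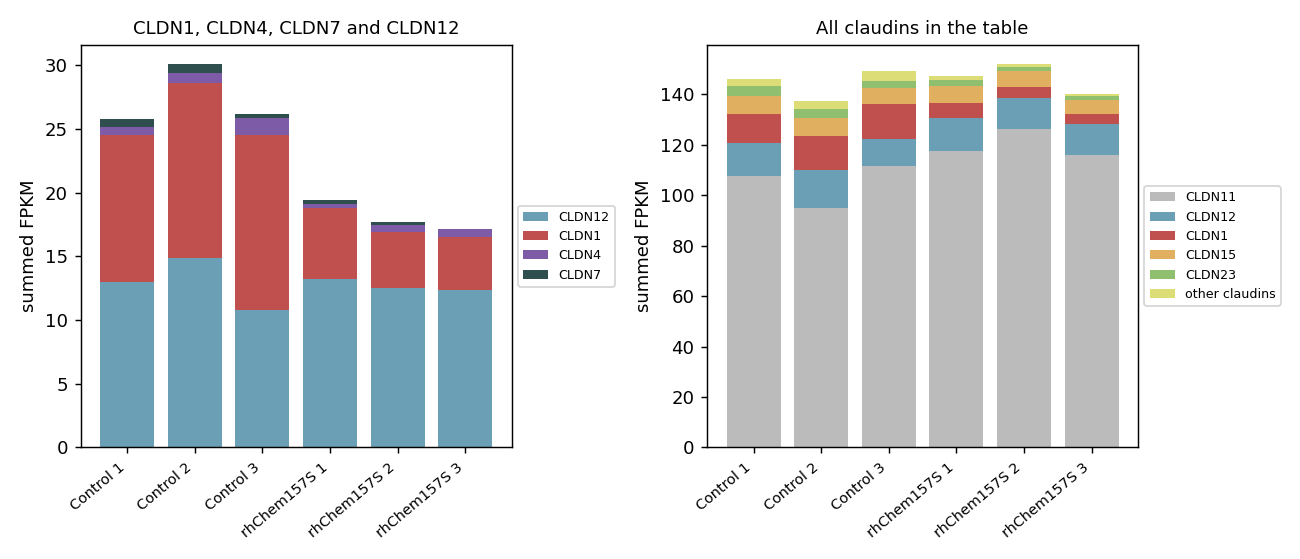
Summed FPKM in each of the 6 libraries, stacked by gene from 0, for the 4 member claudins (left) and for all claudins (right). The left bars are lower with rhChem157S, and on the right CLDN11 fills most of every bar. The totals on the right overlap between the groups in FPKM, which carries no TMM scaling. The CLDN1 segment there is smaller in the rhChem157S bars.

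Genes of the same pathway were taken from 6 lists: other claudins, other junction membrane proteins, other scaffolds, polarity complexes, junction signalling, and regulators and repressors of epithelial genes. Of their 80 genes 55 were tested, and 0 were called by edgeR, with 10 lower and 10 higher at an unadjusted p under 0.05, where 11.4% of all genes were lower and 11.4% higher. DESeq2 called 6 lower and 6 higher, 12 of 55, against 10.6% of all genes in either direction. The groups did not overlap for 14 lower and 12 higher genes, where 16.0% and 16.5% of all genes did not. Their median log2 fold change was -0.02. Without rhChem157S replicate 1 edgeR called 5 of these genes, and without replicate 3 it called 3 (JAM3, MYLK and RAB13), against 6.24% and 3.07% of all genes; these counts were added after the data were seen.

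Among the 5 other claudins tested, 3 were lower and 1 higher without overlap, where 16.0% and 16.5% of all genes were. Their median log2 fold change was -0.73. CLDN10, whose isoforms form cation or anion pores, averaged 1.14 FPKM in Control and 0.162 FPKM in treated libraries, from 2 to 81 counts. Its log2 fold change was -2.69 (SE 0.68, edgeR adjusted p = 0.108; DESeq2 adjusted p = 0.00397). By mean over all libraries CLDN10, and ILDR2 below, lay between 0.1 and 1 FPKM. All genes of that range had a median of -0.36, with 71.6% negative. CLDN23 averaged 3.38 and 1.87 FPKM, a log2 fold change of -0.73 (SE 0.22, edgeR adjusted p = 0.135; DESeq2 adjusted p = 0.0317). Of the 6 other membrane genes, JAM3 had 0.39 (SE 0.09, edgeR adjusted p = 0.0972; DESeq2 adjusted p = 0.00859) and its treated libraries all lay above Control. ILDR2, of the angulin family that recruits tricellulin, had -0.77 and JAM2 -0.72, both below Control in every treated library (edgeR adjusted p = 0.131 and 0.201; DESeq2 adjusted p = 0.0256 and 0.115).

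Among the 14 other scaffolds the median was -0.10 on the log2 scale. TJP3, the ZO-3 gene, had -1.63 from 2 to 20 counts (edgeR adjusted p = 0.185), and PATJ, a multi-PDZ protein of the Crumbs complex, had -0.46 with overlapping groups. Of the 10 polarity genes, 4 were lower and 1 higher without overlap, where 16.0% and 16.5% of all genes were. PARD6G, a PAR6 subunit, had -0.72 and LLGL2, a basolateral polarity protein, had -0.89 (edgeR adjusted p = 0.125 and 0.129; DESeq2 adjusted p = 0.0212 and 0.0180). PARD6B had -0.86 with overlapping groups.

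Junction signalling was the list with most genes above Control, 7 of 11 without overlap, where 16.5% of all genes were higher without overlap, against 1 below. Its median was 0.20, while all genes at 10 to 100 FPKM had a median of 0.08 and those above 100 FPKM a median of 0.25. In these 2 ranges, where most of the list lies, 35.7% and 15.9% of all genes were negative. The share without overlap was not computed by range, so 16.5% is not a background matched for level. RAB13, a small GTPase of junction assembly, averaged 54.8 and 71.3 FPKM, a log2 fold change of 0.50 (SE 0.09, edgeR adjusted p = 0.0752; DESeq2 adjusted p = 0.000271). MYLK, the myosin light chain kinase that tightens the actomyosin ring, averaged 77.1 and 44.2 FPKM, a log2 fold change of -0.69 (SE 0.20, edgeR adjusted p = 0.126; DESeq2 adjusted p = 0.0142). RHOA had 0.30 (SE 0.10, edgeR adjusted p = 0.146; DESeq2 adjusted p = 0.0492). Of the 9 regulators tested, ZEB2, a repressor that binds E-boxes, averaged 9.02 and 10.9 FPKM without overlap (log2 fold change 0.40, SE 0.09, edgeR adjusted p = 0.0948; DESeq2 adjusted p = 0.00741). GRHL1 had -0.98 without overlap (edgeR adjusted p = 0.168), and KLF4 had 1.18 with overlap (edgeR adjusted p = 0.186). By mean over all libraries GRHL1 lay between 0.1 and 1 FPKM, where the median of all genes was -0.36. The related repressors SNAI1, SNAI2 and ZEB1 had -0.14, 0.63 and 0.14 with overlapping groups, and GRHL2, an activator of epithelial junction genes, had 0 to 5 counts and was not tested.

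**Figure D4:**
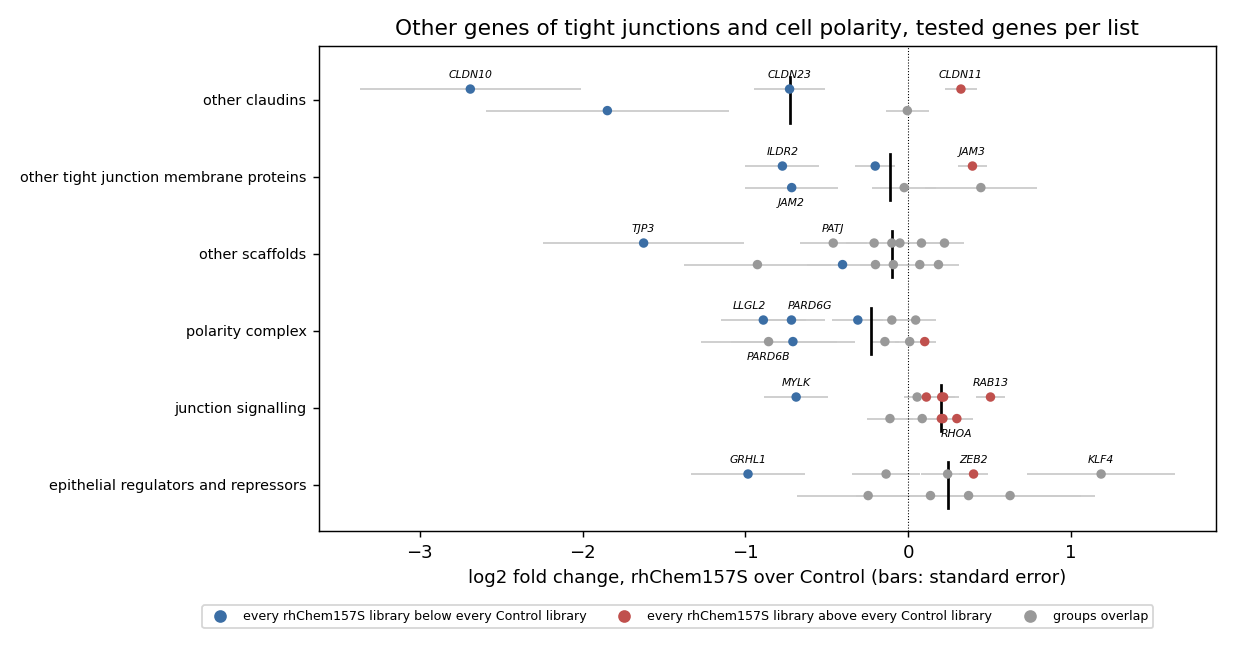
Log2 fold change (rhChem157S over Control, edgeR) of tested genes in the 6 lists, with 1 gene left out; points are genes, bars standard errors, vertical black lines the medians of the genes drawn, and colours tell whether the 3 libraries of each group overlap. The named genes are among the 3 with the smallest p in each list, and CLDN10 lies lowest at -2.69.

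The genes whose pattern over the 6 libraries came closest to that of CLDN1, by the root mean square difference of centred log2 CPM, were ADM2 (0.108), CPE (0.112), ZP3 (0.133), GPR137C (0.134) and LARGE2 (0.135). ADM2 encodes the peptide intermedin, CPE the prohormone-processing carboxypeptidase E and ZP3 a protein of the oocyte coat. Their log2 fold changes were -1.23, -1.18, -1.24, -1.29 and -1.17, and their edgeR adjusted p lay between 0.0569 and 0.0912. Fold changes near that of CLDN1 follow from how these genes were chosen. CPE was the most abundant of the 5, with means of 35.2 and 14.3 FPKM. None of the 5 encodes a junction component listed above.

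**Figure D5:**
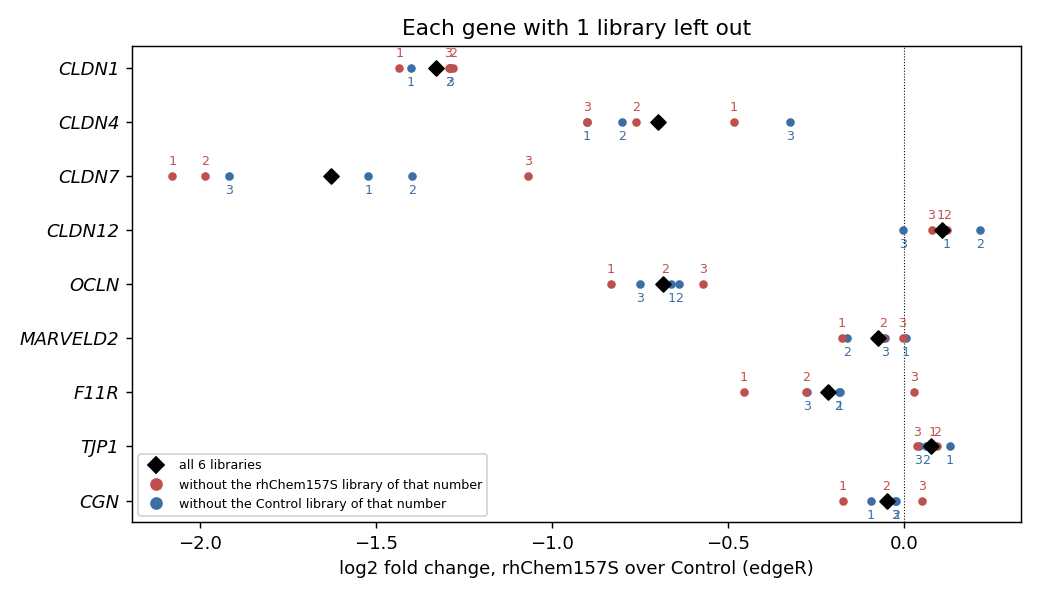
Log2 fold change of each member (edgeR) with all 6 libraries (black diamonds) and with 1 library left out (points, coloured by the group and numbered by the replicate left out). CLDN1 stays between -1.43 and -1.28 and OCLN between -0.83 and -0.57, whereas F11R moves from -0.45 to 0.03.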

How the data were processed

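RNA from untreated (n = 3) and rhChem157S-treated (n = 3) 12Z cells was sequenced on an Illumina platform. The authors trimmed reads with fastp, aligned them with HISAT2 to GRCh38.p13 and counted them with HTSeq. They deposited raw counts and FPKM of the same genes. Strand setting, counting mode and annotation release are not given in the sources used here. In the 79491 values with at least 10 counts, FPKM was count over gene length and total to a relative spread of at most 6.46e-08.

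Counts were tested with edgeR 4.0.16 (TMM, filterByExpr, quasi-likelihood F test) in R 4.3.3, with Benjamini-Hochberg adjustment over 13311 genes. The quasi-likelihood fit was run with legacy=TRUE and robust=FALSE. Called means an adjusted p under 0.05. DESeq2 1.42.0, limma 3.58.1 (log2 FPKM with pseudocounts of 1 or 0.1), other edgeR settings, scalings and filters, a replicate block and leaving out each library were alternatives. Single values used exact permutation tests (scipy 1.17.1). Scripts were tested on simulated data. Named were all members, the 3 genes with the smallest p per list (or those called) and the 5 genes closest to CLDN1. SNAI1, SNAI2, ZEB1, GRHL2 and markers were named from the lists. The values of 1 listed gene are not reported here. The members and lists were chosen with earlier results of these data known. Annotation came from GENCODE 29 and promoters from RefSeq.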

Additional observations from a re-analysis of the deposited data

How the results depend on the processing

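Over 17 alternatives CLDN1, CLDN4, CLDN7 and OCLN kept their direction, CLDN1 with an adjusted p under 0.05 in 12 of them. The count of genes called, 4, was 1407 with DESeq2, 15 with legacy=FALSE, 948 with the likelihood-ratio test, 17 with no filter, 179 and 23 with limma at pseudocounts 1 and 0.1, and 0 to 844 with a library left out. Members called, 1, were 2 with DESeq2 and the likelihood-ratio test and 0 to 2 with a library left out. OCLN was called with DESeq2 (-0.69) and the likelihood-ratio test (-0.68), and ranged from -0.83 to -0.57 with a library left out. CLDN1 ranged there from -1.43 to -1.28, CLDN4 from -0.90 to -0.32 and CLDN7 from -2.08 to -1.07. The members' median, -0.22, was -0.41 with limma at 0.1, and from -0.45 (without rhChem157S replicate 1) to -0.00341 (without replicate 3). The difference in CLDN1 share, -21.5 percentage points, was -5.80 over all claudins. Directions turned for CLDN12 at -0.022 (library size), -0.011 (both limma settings) and -0.00191 (without Control replicate 3), for TJP1 at -0.053 (library size), -0.049 (limma at 1) and -0.051 (limma at 0.1). With a library left out CLDN12 reached 0.22, MARVELD2 ranged from -0.18 to 0.0056, F11R from -0.45 to 0.030 and CGN from -0.17 to 0.052. The cause of these changes was not tested.

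Whether same-numbered libraries form pairs was not tested. Deviations of same-numbered libraries correlated at 0.241, 0.00147 and 0.247, and those of differently numbered libraries at -0.306 to 0.106. Of the 3 Control libraries, 2 correlated best with their own number. With the replicate block edgeR called 1 gene and 0 members, and CLDN1 was -1.33 (adjusted p = 0.0579). CLDN4, CLDN7 and CGN had the fewest counts of the members and wide intervals; whether depth sets those widths was not tested.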
